A study of Mus musculus with 6 samples.

Results

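The genes described here are 9 genes of lymphocyte homing, chosen by name: the vessel addressins and selectins, the enzymes that build selectin ligands, and the adhesion molecules that inflamed vessels display. All 9 were rows of the deposited table of 35434 gene symbols. Glycam1, Madcam1, Chst4 and Fut7 were taken as genes of high endothelial venules, and Selp, Sele, Selplg, Vcam1 and Icam1 as inflammatory adhesion molecules. The tissue was large intestine of mice with inflammatory bowel disease (IBD) that had been given regulatory T cells (Tregs), either control cells (Ctrl-Tregs) or cells exposed to lenvatinib (Lenv-Tregs), a drug that blocks several receptor tyrosine kinases. The samples are titled int 3 and int 2, with 3 libraries each. Which title belongs to which transfer is not stated in the labels, and neither are the strain, sex, age and disease model, so every difference below is int 3 minus int 2, with no treatment assigned. Separate mice for the libraries are not stated either, so p-values measure the spread between these libraries, which may be technical.

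Lymphocytes enter lymphoid tissue through high endothelial venules. They first roll on sulfated, fucosylated mucins on these vessels, and integrins then stop the cell. In the gut the addressin MAdCAM-1, which is bound by the integrin α4β7, marks these venules and the flat venules of the lamina propria. In inflammation, endothelium elsewhere brings P-selectin and E-selectin to its surface and increases ICAM-1 and VCAM-1, which serve entry of myeloid cells and activated T cells. Tumour necrosis factor and interleukin 1 are the classical inducers of that programme, and lymphotoxin signals from lymphocytes keep high endothelial venules in their specialised state.

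Values are FPKM, a fragment count scaled to gene length and library size, as the authors deposited them. The libraries held 34.0 to 35.1 M fragments (M, 1e6), a depth worked back from the steps between low FPKM values. The int 2 libraries lay close together, with an SD of the log2 difference between libraries of 0.110 to 0.115 over the tested genes. For the int 3 pairs that SD was 0.271 to 0.513. The distal colon gene Hoxb13 had an FPKM of 146 in int 3-1, 16.4 in int 3-2 and 267 in int 3-3, against 285 to 288 in int 2. All 11 listed blood endothelium genes, from Cdh5 to Ackr1, were detected in the table, with a summed level of 139 to 243 FPKM in int 3 and 113 to 117 FPKM in int 2. In bulk tissue fewer cells of a type and less RNA per cell cannot be told apart.

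Calls among the homing genes went in both directions. A gene is said to have risen or fallen when its difference passed limma's test on log2(FPKM + 1) at an adjusted p under 0.05, with adjustment over the 12525 genes that reached FPKM 1 in at least 3 libraries. Of the 9 genes 7 could be tested, and of these 2 rose (Selp and Vcam1), 3 fell (Glycam1, Chst4 and Selplg) and 2 did not pass (Madcam1 and Icam1). Of all tested genes 15.3% were called, 8.64% higher and 6.70% lower in int 3. Glycam1 met the filter only through int 2 and Selp only through int 3, so the count of 5 among 7 is a description and supports nothing about the set. Values of int 3 and int 2 did not overlap for 6 of the 9 genes, 3 with int 3 above and 3 with int 2 above, and non-overlap held for 40.4% of all tested genes. The 6 include Sele, which was not tested. The median log2 change was -0.16 over the 4 venule genes and 0.35 over the 5 inflammatory genes, against 0.03 over all tested genes. These medians include the untested Fut7 and Sele, so the sets are not alike. The venule median lies between Chst4 (-0.29) and Fut7 (-0.02) and reflects neither Glycam1 (-3.40) nor Madcam1 (0.40). The share of higher genes among all calls was 56.3%, against 67.7% after rescaling to TPM, which fixes the sum of each library, 51.4% after median-of-ratios scaling and 48.5% after quantile normalization, where lower genes were the majority.

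**Figure D1:**
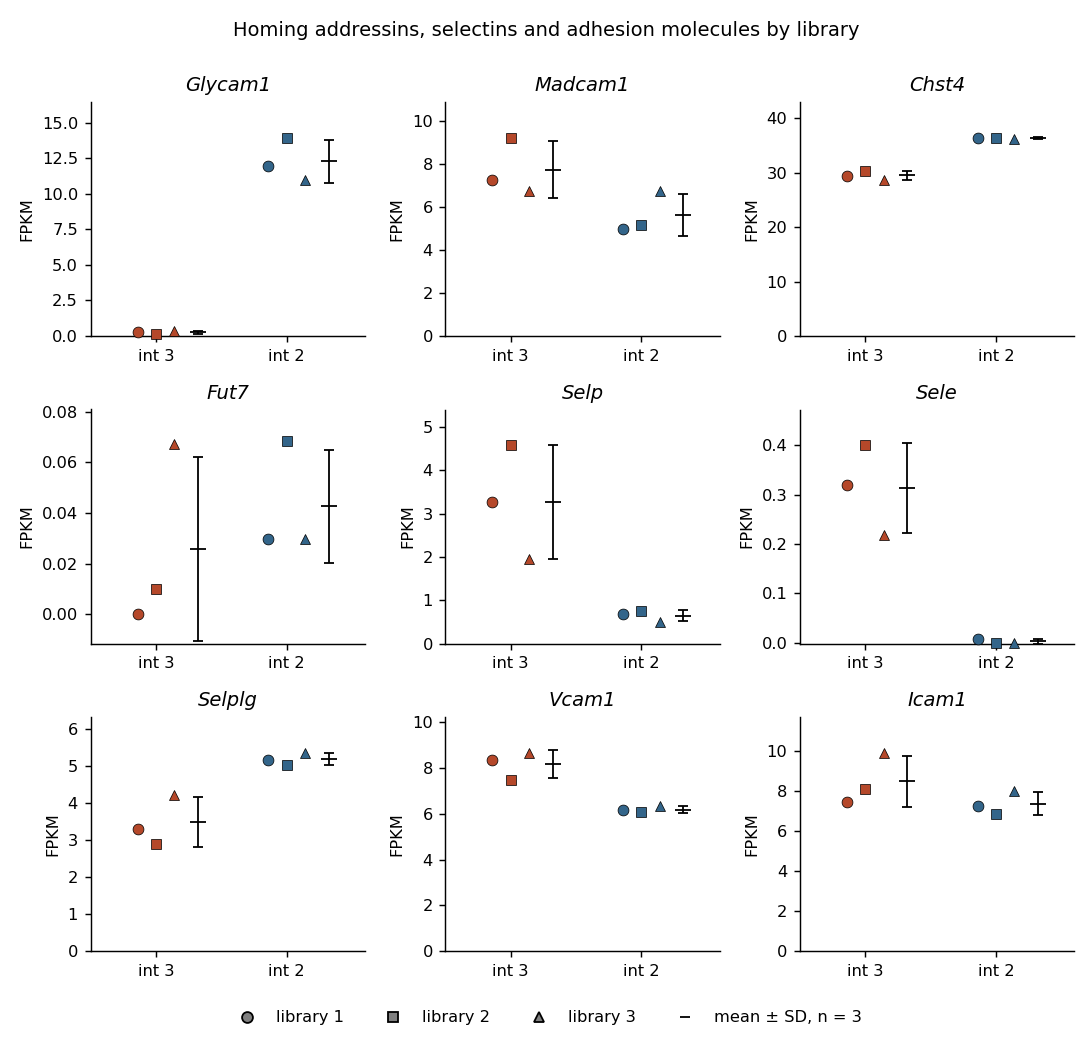
FPKM of the 9 genes in each library, with int 3 left of int 2, a symbol for each library number and the mean ± SD (n = 3) beside them. Glycam1 lies under 0.35 FPKM in every int 3 library and at 10.98 FPKM or more in every int 2 library, while Selp and Sele show the opposite arrangement. Madcam1, Fut7 and Icam1 overlap between the groups.

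On the FPKM scale, which allows levels of different genes to be set side by side, the order of the means in int 3 was Chst4, Icam1, Vcam1, Madcam1, Selplg, Selp, Sele, Glycam1 and Fut7. In int 2 it was Chst4, Glycam1, Icam1, Vcam1, Madcam1, Selplg, Selp, Fut7 and Sele. Glycam1 was thus the second most abundant of the genes in int 2 and next to last in int 3. In int 3 the library values of Icam1, Vcam1 and Madcam1 overlapped, as did those of Selplg and Selp and those of Sele and Glycam1. In int 2 Vcam1 overlapped Madcam1 and Madcam1 overlapped Selplg.

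Glycam1 encodes a secreted mucin-like glycoprotein of high endothelial venules that carries selectin ligands. In FPKM, Glycam1 was 0.307 in int 3-1, 0.132 in int 3-2 and 0.341 in int 3-3, against 11.9 in int 2-1, 13.97 in int 2-2 and 10.98 in int 2-3. These values correspond to 7, 3 and 8 fragments in the int 3 libraries and to 274, 322 and 251 fragments in the int 2 libraries. Every int 3 library was far below every int 2 library, and near the limit of detection. The fall was -3.40 on the log2(FPKM + 1) scale (SE 0.11, adjusted p = 8.2e-05). Depth-scaled fragments gave a ratio of int 3 to int 2 of 0.0212, with an exact 95% interval of 0.0125 to 0.0337 that covers counting error only. The call held in all 17 other settings, with adjusted p up to 0.0060. Glycam1 is also a product of the mammary gland, so 5 milk protein genes were read beside it. Csn1s1 and Wap were at 0 in every library, and Csn2 had 0 fragments in each int 3 library, against 5, 4 and 3 in int 2-1, int 2-2 and int 2-3. Lalba had 0 fragments in each int 3 library, against 0, 1 and 1 in int 2-1, int 2-2 and int 2-3. The summed level of the 5 genes was 0 to 0.0159 FPKM in int 3 and 0.126 to 0.134 FPKM in int 2, and their part in the Glycam1 difference was not tested.

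Madcam1 encodes the gut addressin itself. In FPKM, Madcam1 was 7.28 in int 3-1, 9.24 in int 3-2 and 6.73 in int 3-3, against 4.96 in int 2-1, 5.16 in int 2-2 and 6.76 in int 2-3. Int 3-3 lay just under int 2-3, so the groups overlapped. The log2 change was 0.40 (SE 0.15, adjusted p = 0.12), which did not pass. It passed with library weights (adjusted p = 0.016) and without int 3-3 (adjusted p = 0.041). The number of Madcam1 FPKM per Glycam1 FPKM within a library was 23.7, 70.1 and 19.7 in int 3-1, int 3-2 and int 3-3, against 0.415, 0.369 and 0.616 in int 2-1, int 2-2 and int 2-3. The order of these addressins was thus reversed in every library of int 3 relative to every library of int 2.

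The promoters of these addressins are shown because Glycam1 fell and Madcam1 did not. RefSeq promoter entries (250 bases before to 50 bases after the gene start, build GRCm38.p6, given 5′ to 3′ on the gene's strand) were found by symbol for 7 of the 9 genes, with 8 entries in all, and none for Selplg and Vcam1. They were searched on both strands for the NF-kB consensus and for its 9-base form GGAANNNCC. NF-kB is the transcription factor family through which tumour necrosis factor and lymphotoxin act. Capitals mark matches to either form, which overlap one another. Madcam1 lies on chromosome 10, + strand, at chr10:79664309-79664608, and Glycam1 on chromosome 15, - strand, at chr15:103565032-103565331.
Madcam1: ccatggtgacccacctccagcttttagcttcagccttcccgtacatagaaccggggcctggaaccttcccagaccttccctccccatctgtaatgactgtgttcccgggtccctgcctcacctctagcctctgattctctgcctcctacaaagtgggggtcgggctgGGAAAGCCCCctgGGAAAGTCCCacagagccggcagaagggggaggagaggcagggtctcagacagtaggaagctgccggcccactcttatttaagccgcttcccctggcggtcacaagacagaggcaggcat
Glycam1: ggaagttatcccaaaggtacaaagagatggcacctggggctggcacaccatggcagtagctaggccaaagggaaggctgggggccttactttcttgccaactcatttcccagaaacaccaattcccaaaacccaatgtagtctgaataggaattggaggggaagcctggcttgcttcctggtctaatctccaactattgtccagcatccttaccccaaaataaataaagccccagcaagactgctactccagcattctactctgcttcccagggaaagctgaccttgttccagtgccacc
The Madcam1 window held the NF-kB consensus at 2 places, starting at -83 and -70 relative to the gene start, and both places also matched the 9-base form. The consensus is in 8.46% of 32851 promoter windows of the same length and the 9-base form in 18.5%. The Glycam1 window held neither, which says only that these letters are not in this window. A match is a description of the letters and not evidence of binding.

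Chst4 encodes a sulfotransferase that puts the sulfate on selectin ligands in high endothelial venules, and in the mouse colon it also acts in the epithelium on mucins. In FPKM, Chst4 was 29.5 in int 3-1, 30.4 in int 3-2 and 28.7 in int 3-3, against 36.5 in int 2-1, 36.4 in int 2-2 and 36.1 in int 2-3. All int 3 values were lower than all int 2 values, and both groups were narrow. The fall was small, -0.29 on the log2 scale (SE 0.04, adjusted p = 0.0099). It did not pass without int 2-1, int 2-2, int 2-3 or int 3-1 (adjusted p = 0.063 to 0.066), after rescaling to TPM (0.059) or with the replicate number as a block (0.059). Its level of 29.5 ± 0.841 FPKM in int 3 and 36.3 ± 0.176 FPKM in int 2 (SD, n = 3 each) was the highest of the 9 genes in both groups. Of the blood endothelium genes, Plvap alone had a higher mean than Chst4 in both groups. Fut7, the fucosyltransferase that completes selectin ligands in leukocytes and high endothelial venules, was scarce, with 0, 1 and 7 fragments in int 3-1, int 3-2 and int 3-3 and 3, 7 and 3 fragments in int 2-1, int 2-2 and int 2-3. It was at most 0.0685 FPKM in any library and was not tested. A difference between the groups was not detectable at this depth, since the exact 95% interval of the fragment ratio was 0.22 to 1.6.

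Selp encodes P-selectin, the selectin stored in endothelial granules and in platelets. In FPKM, Selp was 3.28 in int 3-1, 4.58 in int 3-2 and 1.96 in int 3-3, against 0.687 in int 2-1, 0.760 in int 2-2 and 0.502 in int 2-3. The lowest int 3 library was above the highest int 2 library. The rise was 1.33 on the log2 scale (SE 0.23, adjusted p = 0.014), and the mean ratio of int 3 to int 2 was 5.04. The gene did not pass without int 2-1, int 2-2, int 2-3 or int 3-1 (adjusted p = 0.062 to 0.072), while the log2 change then stayed between 1.26 and 1.38. Platelet genes are read beside it, since platelets carry P-selectin. Of 8 listed, all were in the table and 2 could be tested. Pf4 (13.2 ± 2.0 FPKM in int 3, 14.6 ± 1.06 in int 2) and Itgb3 (4.67 ± 0.20 and 4.38 ± 0.238) did not pass (adjusted p = 0.43 and 0.45). The summed level of the platelet list was 18.6 to 20.9 FPKM in int 3 and 18.2 to 20.8 FPKM in int 2. Most of that sum is Pf4. Other genes of the list were near the limit of detection, with Ppbp at a mean of 0.144 FPKM (int 3) and 0.081 FPKM (int 2) and Gp1ba at 0.0225 and 0.0187. The sum therefore follows Pf4 and does not give the platelet content. Gp1bb, which was below the filter, had an FPKM of 1.01 in int 3-1, 1.78 in int 3-2 and 0.561 in int 3-3. In int 2-1, int 2-2 and int 2-3 it was 0.294, 0.306 and 0.351, so its groups did not overlap. The other listed platelet genes overlapped between the groups. Gp9 had an FPKM of 0.0448 in int 3-2 and was at 0 in the other libraries. The part of platelets in the Selp difference was not tested.

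Sele encodes E-selectin, which endothelium makes after induction by inflammatory cytokines. In FPKM, Sele was 0.319 in int 3-1, 0.40 in int 3-2 and 0.219 in int 3-3, against 0.00723 in int 2-1, 0 in int 2-2 and 0 in int 2-3. This is 44, 55 and 31 fragments against 1, 0 and 0. Every int 3 library was above every int 2 library, at a level that stayed under the filter in all 6, so the gene was not among those tested. The fragment ratio of int 3 to int 2 was 129.6, with an exact 95% interval of 22.9 to 5158 that covers counting error only and is wide because int 2 held a single fragment. Without the filter on low values the gene passed (log2 change 0.39, SE 0.05, adjusted p = 0.015). The log2 value is small because a pseudocount of 1 exceeds every value of the gene.

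Vcam1 encodes the ligand of the integrin α4β1, induced on inflamed endothelium and also present on stromal cells. In FPKM, Vcam1 was 8.32 in int 3-1, 7.47 in int 3-2 and 8.65 in int 3-3, against 6.16 in int 2-1, 6.06 in int 2-2 and 6.33 in int 2-3. The groups did not overlap, and the rise was 0.35 on the log2 scale (SE 0.07, adjusted p = 0.021). It did not pass without int 2-1, int 2-2, int 2-3 or int 3-1 (adjusted p = 0.086 to 0.10), after median-of-ratios scaling or quantile normalization (0.060 in both) or with the replicate number as a block (0.064). Icam1 encodes the ligand of the leukocyte β2 integrins LFA-1 and Mac-1. In FPKM, Icam1 was 7.46 in int 3-1, 8.12 in int 3-2 and 9.92 in int 3-3, against 7.26 in int 2-1, 6.87 in int 2-2 and 8.02 in int 2-3. The groups overlapped and the log2 change of 0.17 (SE 0.11, adjusted p = 0.32) did not pass in any of the settings tried.

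The promoters of the inducible members with an entry are shown for the same motifs, again in GRCm38.p6. Sele (chr1:164047984-164048283) and Selp (chr1:164115014-164115313) are neighbours on chromosome 1, + strand, and Icam1 lies on chromosome 9, + strand, at chr9:21015690-21015989.
Sele: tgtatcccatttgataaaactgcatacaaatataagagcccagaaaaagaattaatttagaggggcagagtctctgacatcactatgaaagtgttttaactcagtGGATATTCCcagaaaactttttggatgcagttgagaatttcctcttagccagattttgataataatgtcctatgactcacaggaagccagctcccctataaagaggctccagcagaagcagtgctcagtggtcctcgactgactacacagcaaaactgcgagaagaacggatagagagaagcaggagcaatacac
Selp: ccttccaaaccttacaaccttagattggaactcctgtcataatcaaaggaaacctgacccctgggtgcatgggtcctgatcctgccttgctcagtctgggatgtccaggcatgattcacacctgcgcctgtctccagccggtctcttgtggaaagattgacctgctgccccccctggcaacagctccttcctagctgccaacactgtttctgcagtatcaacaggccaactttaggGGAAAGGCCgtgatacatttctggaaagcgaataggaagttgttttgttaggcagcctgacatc
Icam1: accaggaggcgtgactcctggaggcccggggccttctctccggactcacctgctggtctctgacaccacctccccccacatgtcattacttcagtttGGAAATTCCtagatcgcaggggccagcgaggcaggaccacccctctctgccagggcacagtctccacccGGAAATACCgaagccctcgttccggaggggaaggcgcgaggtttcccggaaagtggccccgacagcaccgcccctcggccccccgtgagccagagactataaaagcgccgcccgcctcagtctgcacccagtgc
The 9-base form was found once in Sele, starting at -145 relative to the gene start, once in Selp, at -14, and at 2 places in Icam1, at -153 and -84. Of the 8 entries 4 held the 9-base form, those of Madcam1, Sele, Selp and Icam1, and 1 held the full consensus. Over all windows these forms were in 18.5% and 8.46%. A paired interferon response motif was in 0 of the 8 entries and in 3.44% of all windows. Genes with the 9-base form included 1 that rose (Selp), 2 that did not pass (Madcam1 and Icam1) and 1 that was not tested (Sele). Those without it were Glycam1 and Chst4, which fell, and Fut7, which was not tested. Vcam1, which rose, and Selplg, which fell, had no entry.

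Selplg encodes PSGL-1, the leukocyte mucin that P-selectin and E-selectin bind, and is the member chiefly carried by the blood cell. Which cells its fragments came from cannot be told in bulk tissue. In FPKM, Selplg was 3.31 in int 3-1, 2.91 in int 3-2 and 4.22 in int 3-3, against 5.15 in int 2-1, 5.04 in int 2-2 and 5.35 in int 2-3. All int 3 values were lower, and the log2 change was -0.47 (SE 0.11, adjusted p = 0.038). It did not pass without int 2-1, int 2-2, int 2-3 or int 3-1 (adjusted p = 0.13 to 0.15), without a filter (0.079), after median-of-ratios scaling (0.052) or quantile normalization (0.060), or with the replicate number as a block (0.064). Of 6 general leukocyte genes tested beside it 5 fell, among them Ptprc, the gene of CD45, with a mean of 4.35 ± 1.49 FPKM (int 3) and 11.6 ± 0.419 FPKM (int 2), and Cd53, a leukocyte tetraspanin, with 6.96 ± 1.74 and 14.4 ± 0.456 (adjusted p = 0.010 and 0.012). The count that fell was 0 without int 2-1, int 2-2, int 2-3 or int 3-1, 6 without int 3-2 or int 3-3, and 2 with no filter or with the replicate number as a block. The summed level of the 6 genes was 120, 73.8 and 159 FPKM in int 3-1, int 3-2 and int 3-3 and 245 to 248 FPKM in int 2. Selplg came to 2.77%, 3.93% and 2.65% of that sum in int 3-1, int 3-2 and int 3-3 and to 2.10%, 2.06% and 2.15% in int 2-1, int 2-2 and int 2-3. Relative to this sum Selplg was therefore higher in every int 3 library than in any int 2 library, the reverse of its FPKM. That sum is uneven, since Cd52 averaged 53.8 FPKM of a mean sum of 118 in int 3 and 121 FPKM of 246 in int 2. Laptm5, also in the sum, had a log2 change of -0.56, near that of Selplg. The higher share thus does not hold against each of the 6 genes.

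**Figure D2:**
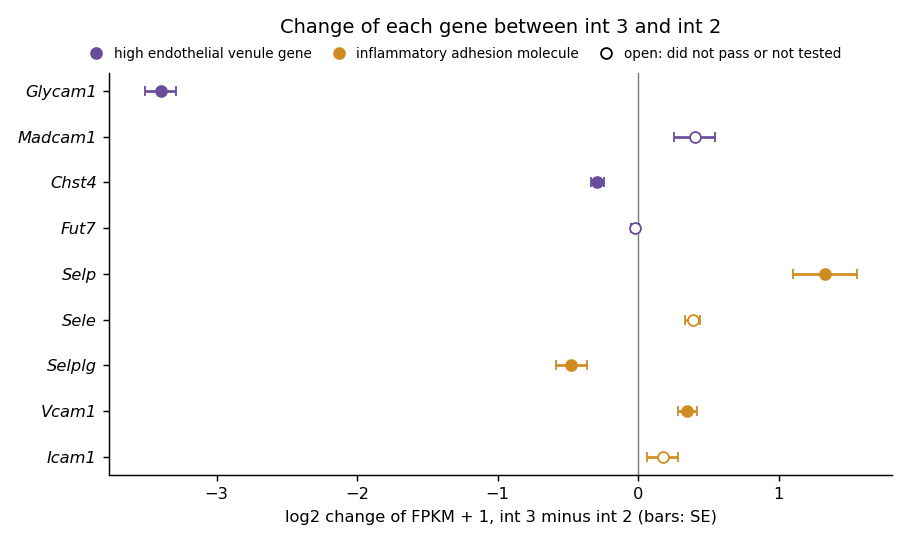
Log2 change of FPKM + 1, int 3 minus int 2, for each gene with its SE; filled points passed the test and open points did not pass or, for Fut7 and Sele, were below the filter (their SE is from the fit without a filter). The venule genes range from -3.40 to 0.40 and the inflammatory genes from -0.47 to 1.33.

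Genes of blood endothelium were read beside the vessel members. Of the 11 tested 2 rose, Plvap, a protein of fenestrated capillaries, with a mean of 91.1 ± 19.8 FPKM (int 3) and 54.1 ± 2.33 FPKM (int 2), and Vwf, the von Willebrand factor of endothelial granules, with 7.0 ± 2.25 and 3.15 ± 0.118 (adjusted p = 0.027 and 0.032). The other 9 did not pass, and the median log2 change of the list was 0.70. With 1 library left out 0 to 9 of the genes rose and 0 to 1 fell; Plvap and Vwf did not pass without int 2-1, int 2-2, int 2-3 or int 3-1 (adjusted p = 0.095 to 0.12). The summed level of the list was 187, 243 and 139 FPKM in int 3-1, int 3-2 and int 3-3, an order that Selp, Sele, Madcam1 and Chst4 shared across these libraries, Chst4 being lower in int 3 than in int 2. Vcam1 and Glycam1 had their lowest int 3 value in int 3-2 and their highest in int 3-3, the opposite order. Hoxb13 (146, 16.4 and 267 FPKM in int 3-1, int 3-2 and int 3-3) had that opposite order too. So did the summed leukocyte genes (120, 73.8 and 159 FPKM). These quantities cannot be told apart by their order in the int 3 libraries.

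The members were also expressed as a percentage of the summed FPKM of these 11 genes in the same library, as a description with no test. The sum is uneven, since Plvap averaged 91.1 FPKM of a mean sum of 190 in int 3. In int 2 Plvap averaged 54.1 FPKM of 114. Cldn5 alone of the list had a lower mean in int 3, 8.28 ± 1.08 FPKM against 10.4 ± 0.309 in int 2. It did not pass (adjusted p = 0.077). The shares are thus not an even correction for endothelial content. Glycam1 came to 0.164%, 0.0543% and 0.245% in int 3-1, int 3-2 and int 3-3, against 10.6%, 12.3% and 9.42% in int 2-1, int 2-2 and int 2-3. Madcam1 averaged 4.18% ± 0.567 in int 3 and 4.91% ± 0.776 in int 2 (SD, n = 3 each), and its groups overlapped on this scale too. Chst4 came to 15.8%, 12.5% and 20.6% in int 3-1, int 3-2 and int 3-3, against 32.4%, 31.9% and 31.0% in int 2-1, int 2-2 and int 2-3. Its ratio of int 3 to int 2 was 0.513 on this scale without overlap, against 0.813 in FPKM. The sum that it is divided by had a ratio of 1.66. Chst4 is also epithelial, so its share of this sum is not a level per vessel. Selp stayed above int 2, at 1.68% ± 0.249 in int 3 and 0.569% ± 0.123 in int 2. Sele was 0.171%, 0.165% and 0.157% in int 3-1, int 3-2 and int 3-3, nearly the same share in each, against at most 0.00642% in int 2. Vcam1, higher in int 3 in FPKM, averaged 4.58% ± 1.57 in int 3 and 5.40% ± 0.0830 in int 2, with overlap. Icam1 averaged 4.82% ± 2.02 and 6.45% ± 0.428, also with overlap. The part of endothelial content in the members' differences was not tested beyond these ratios. An exact permutation test of 3 libraries against 3 cannot give a two-sided p under 0.1.

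**Figure D3:**
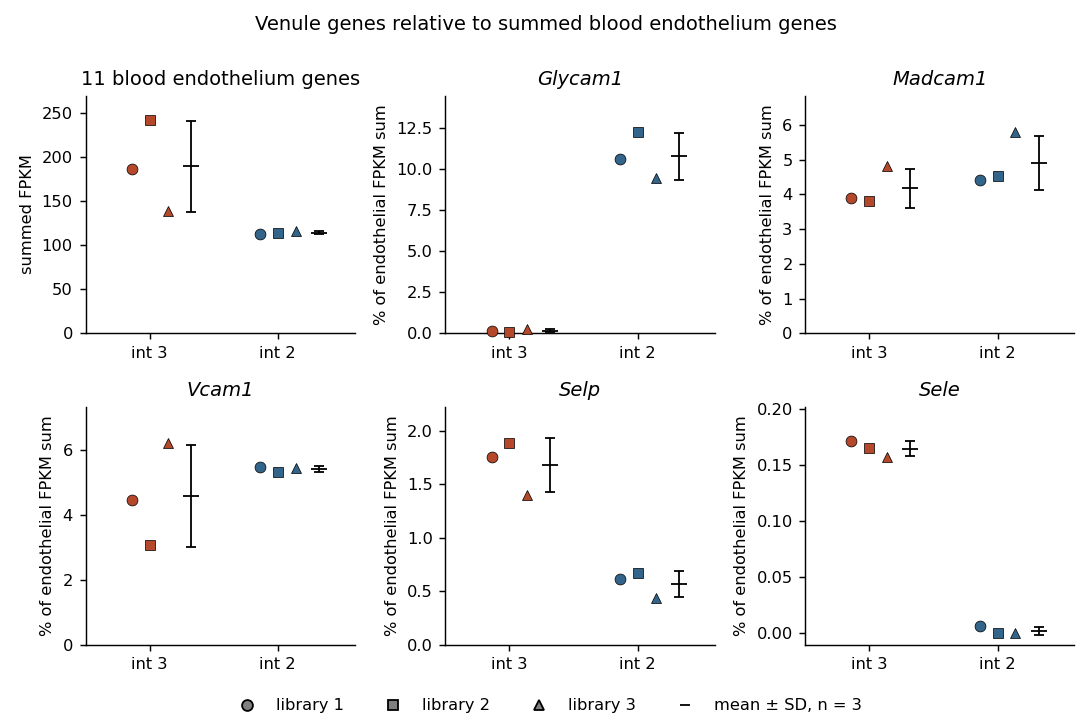
Summed FPKM of 11 blood endothelium genes, and 5 of the homing genes as a percentage of that sum, by library with the mean ± SD (n = 3), int 3 left of int 2. Relative to this sum Glycam1 is lower and Selp and Sele are higher in all int 3 libraries, while Madcam1 and Vcam1 overlap.

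The counterparts of the members in the same pathway were read from lists, with the median log2 change of all tested genes at 0.03. Beside the counts of these and the following lists stand the shares over all tested genes, 8.64% higher and 6.70% lower in int 3. Of 10 enzymes that build selectin ligands, all tested, 3 rose and 7 did not pass (median 0.10). B3gnt3, which extends core structures in venules and is also epithelial, averaged 90.6 ± 7.18 FPKM (int 3) and 66.9 ± 0.162 FPKM (int 2), and C1galt1, which makes core 1 O-glycans, at 23.6 ± 5.25 and 14.5 ± 0.456 (adjusted p = 0.0096 and 0.040). Of 5 sialomucins that can carry these glycans 2 rose and 3 did not pass (median 0.67). They were Podxl, podocalyxin, with a mean of 14.4 ± 2.35 FPKM (int 3) and 8.23 ± 0.245 FPKM (int 2), and Cd300lg, nepmucin, at 5.24 ± 1.12 and 2.61 ± 0.178 (adjusted p = 0.011 and 0.015). B3gnt3, C1galt1, Podxl and Cd300lg did not pass without int 2-1, int 2-2, int 2-3 or int 3-1 (adjusted p = 0.053 to 0.15), and with 1 library left out 0 to 5 enzymes and 0 to 5 carriers rose. Of the enzymes 0 to 4 then fell, with 4 falling without int 3-3 and 1 without int 3-2.

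Receptors on leukocytes are the partners of these vessel genes. Of 18 listed 14 were tested, of which 7 fell, 1 rose and 6 did not pass (median -0.42). Spn, counted among the 7, met the filter only through int 2, as did another of them. Ccr7, the chemokine receptor of naive T cells and B cells that enter through high endothelial venules, averaged 1.25 ± 0.243 FPKM in int 3 and 4.27 ± 0.863 in int 2 (adjusted p = 0.0037). Itgb7, the β chain of the MAdCAM-1 receptor, averaged 1.30 ± 0.584 and 2.99 ± 0.238 FPKM (adjusted p = 0.033), and Itga4, the α chain it shares with the VCAM-1 receptor, 1.36 ± 0.115 and 1.77 ± 0.0845 FPKM, which did not pass (adjusted p = 0.087). For ICAM-1, Itgb2, the β chain of LFA-1 and Mac-1, fell to 4.15 ± 0.593 FPKM in int 3, against 6.11 ± 0.129 in int 2 (adjusted p = 0.023). Itgam, the α chain of Mac-1 on myeloid cells, was the gene that rose, at 3.06 ± 0.687 and 1.15 ± 0.0704 FPKM (adjusted p = 0.0081). With 1 library left out 3 to 8 of these receptors fell and 1 to 4 rose.

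Of 7 homing chemokines, all tested, 2 fell and 5 did not pass (median -0.43). Ccl21a, which arrests lymphocytes in high endothelial venules and is also made by lymphatics, averaged 47.3 ± 6.81 FPKM (int 3) and 109 ± 2.57 FPKM (int 2), and Ccl19, its companion ligand of CCR7, at 2.08 ± 0.512 and 3.94 ± 0.228 (adjusted p = 0.0014 and 0.016). In the lymphotoxin axis 9 of 11 genes were tested, 1 fell, 2 rose and 6 did not pass (median -0.09). Ltb, the membrane-anchoring lymphotoxin chain of lymphocytes, had an FPKM of 6.10 in int 3-1, 2.52 in int 3-2 and 9.22 in int 3-3, against 24.9 to 25.3 in int 2 (adjusted p = 0.016). Its receptor Ltbr rose, with a mean of 50.7 ± 1.80 FPKM (int 3) and 38.4 ± 0.710 FPKM (int 2) (adjusted p = 0.0046), as did Nkx2-3, the homeobox factor needed for MAdCAM-1 on mouse gut vessels, at 17.0 ± 1.91 and 13.2 ± 0.270 (adjusted p = 0.045). Without int 2-1, int 2-2, int 2-3 or int 3-1 Ltb, Ccl19 and Nkx2-3 did not pass (adjusted p = 0.064 to 0.16). Of 7 cytokines that activate endothelium 2 were tested and both rose, Tnf with a mean of 1.92 ± 0.384 FPKM (int 3) and 0.394 ± 0.0715 FPKM (int 2) and Il1b at 4.70 ± 0.448 and 1.34 ± 0.267 (adjusted p = 0.0033 and 0.0013). Tnf met the filter only through int 3. With 1 library left out 1 to 4 of the chemokines fell and 0 to 1 rose, and in the lymphotoxin axis 0 to 2 fell and 1 to 2 rose.

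**Figure D4:**
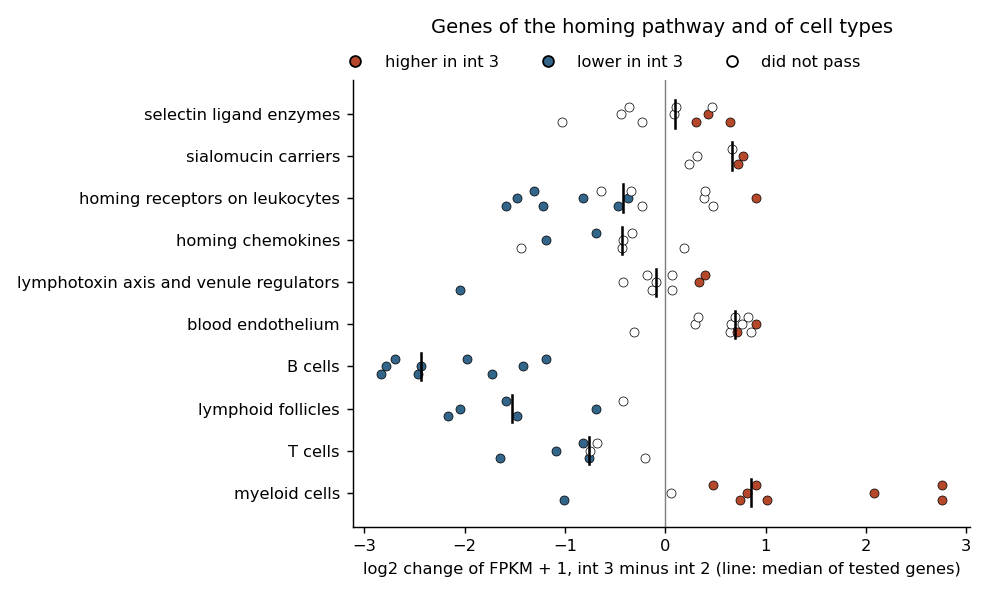
Log2 change of FPKM + 1, int 3 minus int 2, of each tested gene in 10 lists of the homing pathway and of cell types; filled points passed the test, and the line is the list's median. The medians run from -2.44 for B cells to 0.86 for myeloid cells, with receptors and chemokines of homing on the lower side and endothelium and sialomucins on the higher side.

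Markers of the cells that use or surround these vessels were read as well. Ltb, Lta, Ccl19, Cxcl13 and Cxcr5 stand in the follicle list too, and Itgam in the myeloid list. All 9 tested B cell genes fell (median -2.44), with a summed level of 5.43 to 46.2 FPKM in int 3 and 161 to 167 FPKM in int 2. Examples are Cd22, an inhibitory receptor, with a mean of 1.04 ± 0.631 FPKM (int 3) and 6.76 ± 0.206 FPKM (int 2) and the kinase gene Blk at 0.734 ± 0.551 and 4.57 ± 0.650 (adjusted p = 0.0036 and 0.0072). The follicle list had 6 tested genes, of which 5 fell, with a summed level of 20.7 to 74.1 FPKM in int 3 and 87.1 to 89.2 FPKM in int 2. Fcer2a, a receptor of follicular B cells, averaged 0.606 ± 0.360 FPKM (int 3) and 6.07 ± 0.362 FPKM (int 2) (adjusted p = 0.00097). Of 7 tested T cell genes 4 fell and 3 did not pass, with sums of 8.70 to 17.7 FPKM in int 3 and 28.3 to 30.1 FPKM in int 2. Among them were Cd2, an adhesion receptor (log2 change -1.64, adjusted p = 0.0041), and the kinase gene Lck (-0.76, adjusted p = 0.0024). Il7r among the T cell genes that fell, and likewise Fcer2a and Gp2, met the filter only through int 2. Of 4 tested genes listed for M cells, which lie in the epithelium over follicles, 2 fell, 1 rose and 1 did not pass. In bulk tissue their fragments cannot be assigned to M cells. Tnfaip2 rose, with a mean of 5.42 ± 0.547 FPKM (int 3) and 2.43 ± 0.187 FPKM (int 2), and Spib, a transcription factor, fell, with 3.03 ± 0.793 and 10.3 ± 0.229 (adjusted p = 0.0020 for both). Gp2 fell too, with 0.152 ± 0.0826 and 1.68 ± 0.346 (adjusted p = 0.0023). With 1 library left out 2 to 9 of the B cell genes, 1 to 5 of the follicle genes and 3 to 6 of the T cell genes fell. In these lists, as in those of enzymes, carriers, receptors, endothelium and leukocytes, the lower counts came without int 2-1, int 2-2, int 2-3 or int 3-1, and the highest was reached without int 3-3. The genes of these lists that fell moved in the direction of Glycam1, and their part in the Glycam1, Selplg and receptor differences was not tested.

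Of 10 tested myeloid genes 8 rose, 1 fell and 1 did not pass (median 0.86), with sums of 110 to 121 FPKM in int 3 and 63.6 to 66.2 FPKM in int 2. S100a8 and S100a9, counted among the 8, met the filter only through int 3. With 1 library left out 6 to 8 of the list rose and 1 fell. The Fc receptor genes Fcgr4 and Fcgr3 stood at 7.25 ± 0.735 and 7.5 ± 0.126 FPKM in int 3, against 0.949 ± 0.108 and 3.20 ± 0.138 FPKM in int 2 (adjusted p = 0.00015 and 0.00035). The monocyte gene Ly6c2 fell (4.75 ± 0.625 FPKM in int 3, 10.7 ± 1.82 in int 2, adjusted p = 0.0065). Lymphatic endothelium had 4 tested genes, of which Lyve1 and Mmrn1 fell, Pdpn rose and 1 did not pass. Mmrn1 averaged 1.84 ± 0.175 FPKM (int 3) and 5.51 ± 0.121 FPKM (int 2) and Lyve1 at 5.85 ± 0.411 and 10.7 ± 0.0878 (adjusted p = 0.00043 and 0.0012). Of 9 tested junctional adhesion genes Esam rose, Alcam fell and 7 did not pass (median 0.30). With 1 library left out 0 to 5 of them rose and 0 to 2 fell, with 5 and 2 without int 3-3. The 4 tested distal Hox genes did not pass. Esam and Alcam did not pass without int 2-1, int 2-2, int 2-3 or int 3-1 (adjusted p = 0.065 to 0.11), nor did Pdpn without int 2-2, int 2-3 or int 3-1 (0.071 to 0.080).

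Genes with the profile most like that of 4 of the members were found over the 6 libraries, as the smallest Euclidean distance between centred log2(FPKM + 1) values. For Glycam1 they were Lyz1, a lysozyme, Reg4, a lectin that colonic secretory cells release, and Slc20a1, a phosphate transporter, at distances of 1.12, 1.32 and 1.44. Lyz1 was above Glycam1 in every library, with 3.15, 1.81 and 4.08 FPKM in int 3-1, int 3-2 and int 3-3 and 21.2 to 22.9 FPKM in int 2. For Madcam1 they were Layn, Aldh3b1 and Lrrc4b (0.145, 0.146 and 0.155), for Vcam1 Ifih1, a sensor of viral RNA, Ildr1 and Bhlhe40, a transcription factor (0.0444, 0.0631 and 0.0728), and for Icam1 Tceal6, Lrrc26 and Tor3a (0.137, 0.148 and 0.151). These distances describe 6 libraries in 2 groups and say nothing of shared function or control.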

How the data were processed

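RNA came from 6 mouse large intestine samples by TRIzol extraction and VAHTS library preparation, as the labels' protocols state. FPKM values for 35434 gene symbols are as deposited by the authors. Per the submitters' processing notes the build is GRCm39, and the aligner, counter, annotation and handling of strand and of shared fragments are not given in the sources used here. Columns were tied to samples by title. A gene was tested if 3 of 6 libraries reached FPKM 1, with limma 3.58.1 in R 4.3.3 on log2(FPKM + 1) (eBayes with trend, two-sided, Benjamini-Hochberg over 12525 genes, threshold 0.05), which understates the change of low genes. Whole fragments were worked back from the FPKM steps for 99.9% of the tested genes, and the fit and the recovery were tested on simulated data. The data simulated for the fit had the same spread in both groups, unlike these libraries. The fit itself also takes a single spread per gene for both groups, so the unequal spread of int 3 and int 2 was not covered. The genes, the lists and the naming rule (of each list the 2 genes with the smallest p in each direction, or the 2 most abundant where none passed, and the 3 nearest profiles of 4 members) were chosen with earlier results of these data known. Other genes were named for their role as partners or markers of a member. A listed receptor gene is not reported here. Alternatives were other pseudocounts, filters and scalings, a replicate block, library weights, a robust prior, voom on the recovered fragments (1873 genes called) and leaving out each library. Figures were drawn with matplotlib 3.10.9 and Python 3.11.15.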

Additional observations from a re-analysis of the deposited data

How the results depend on the processing

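Directions held for the 7 tested genes in all settings in which each could be fitted, while several calls did not. Fut7 and Sele had only 1 fit, the one without a filter. It uses the same values, so their direction could not turn and its robustness was not tested. The count of genes that rose, 2, was 1 at a mean FPKM of 5 or more, 1 after median-of-ratios scaling, 1 after quantile normalization and 1 with the replicate block, and 0 to 3 with 1 library left out. The count that fell, 3, was 2 after rescaling to TPM, after median-of-ratios scaling, after quantile normalization, with no filter and at a mean FPKM of 5 or more. It was 1 with the replicate block and 1 to 3 with 1 library left out. At a mean FPKM of 5 or more Selp and Selplg were not among the genes tested. Of all genes tested 1921 were called, against 7156 with library weights, 889 with the replicate block and 615 to 4913 with 1 library left out, the last value being without int 3-3. The cause was not tested. Whether the replicate numbers pair the samples is not stated in the labels. Deviations of same-numbered libraries from their group means correlated at -0.0147 (number 1), 0.00407 (number 2) and -0.0215 (number 3). Not every library correlated best with its own number. With 3 libraries in each group these values cannot decide whether samples were paired. After rescaling to TPM the median of all genes was 0.10, against 0.03. The sign turned for the log2 change of Hoxd13, -0.48 as deposited, with library weights (0.33) and without int 3-2 (0.85; range with 1 library left out -1.35 to 0.85), and for the log2 change of Tceal6, 0.11, with library weights (-0.023). Depth limits Fut7, Sele and the int 3 values of Glycam1, which rest on few fragments: Fut7 had 8 in int 3 and 13 in int 2, Sele 130 in int 3 and 1 in int 2, and Glycam1 18 in int 3.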
